A study of Homo sapiens with 12 samples.

Results

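Cells of the pleural mesothelioma line MSTO-211H that received 10 µM QTP together with 4 Gy were compared with cells that received neither, across the whole protein-coding transcriptome. The compared genes were the protein-coding genes that averaged at least 1 FPKM (reads per kilobase of gene, scaled to the depth of the library) over the 12 libraries of the series. This gave 10751 genes of 19951 protein-coding genes in the table, and 9200 stayed under that level. IQCH, LIN52 and HBEGF lay just inside it, with means of 1.00016, 1.00031 and 1.00046 FPKM, and L3MBTL4, ZNF658 and UBAP1L just outside it, with 0.998, 0.998 and 0.997 FPKM. MSTO-211H is an established human line, and here it was kept in suspension in a medium with growth factors, which the submitters describe as mesothelioma-initiating culture. The group called Combo took 10 µM QTP and, a day later, 4 Gy of radiation. The group called Rx took 10 µM QTP and a sham exposure, the group called IR took vehicle and 4 Gy, and the group called Con took vehicle and a sham exposure. RNA was extracted 48 h after the exposure in every group, and each group has 3 libraries. The titles alone do not spell out Rx and Combo, which were read from the 4 arms of the design, and the labels name the compound only as QTP. All groups are 1 cell line, and no label says that the libraries of a group are separate cultures. P-values therefore speak only of the spread among these 12 libraries, part or all of which can be technical.

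Several gene programmes give the background for this comparison. Cells that sense too little cholesterol in the endoplasmic reticulum release the SREBP factors, which switch on the enzymes that make sterols and unsaturated fatty acids. Cells that stop dividing repress mitotic and replication genes through the RB family and the DREAM complex, which act at CHR and E2F elements in the promoters, and p53 feeds this repression through the inhibitor CDKN1A after radiation. Lysosomal, amino acid response, antioxidant and inflammatory genes each answer to their own factors (TFEB and TFE3, ATF4, NRF2 and NF-kB).

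Whole reads recovered from the deposited values summed to 17441486, 18630958 and 18256090 in Combo, against 16269195, 16192930 and 13188257 in Con, so all Combo libraries were deeper. A gene of 1 kb at 1 FPKM rested on 13.3 to 19.1 reads. Mitochondrial genes took 8.06% to 9.06% of reads in Combo and 6.74% to 9.22% in Con. The first principal component of the protein-coding genes held 35.1% of the variance. It placed Combo at -17.1 to -6.70 and Con at -6.06 to 9.43, with Combo 3 at one end and IR 3, which is in neither group, at the other (18.6). IR 1, at -9.85, lay within the Combo range, so this component did not set Combo apart from all other libraries. Of 16 markers of blood, vessel and connective tissue cells, 12 were under 0.1 FPKM on average, and the list summed to 11.4 to 14.1 FPKM in Combo and 11.3 to 11.7 FPKM in Con. In bulk RNA, fewer cells of a kind and less RNA per cell cannot be told apart.

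Over all genes the 2 groups were close. Differences are given throughout as Combo minus Con on the scale log2(FPKM + 1). Their median was -0.01, and the middle 50% of genes lay between -0.11 and 0.09. No gene passed an adjusted p of 0.05 with limma (0 of 13038 genes of every biotype, 0%), and the smallest adjusted p was 0.122. Limma voom on the recovered reads, with no block for the replicate number, also called 0 genes. Fits with that block did call genes and are given below, since the numbers were not taken to pair these groups. With limma library quality weights 365 genes passed, of which 155 were higher, and the greatest weight (8.20) fell on IR 2, a library of neither group. At an unadjusted limma p under 0.05 there were 1719 genes of every biotype. Among the protein-coding genes 598 (5.56%) were higher in Combo at that unadjusted level and 919 (8.55%) lower. Both directions together held 1517 of 10751 genes (14.1%). A threshold of 0.05 would pass a share of about 0.05 over both directions if no gene differed. Genes vary together, and this excess was not tested. Without Combo 3 the higher and lower counts were 316 and 407, without Con 2 they were 345 and 470, and without Con 3 they were 385 and 608. All 3 Combo libraries lay above all 3 Con libraries for 1124 genes (10.5%) and below them for 1549 genes (14.4%). On this scale, which understates the fold of low genes, a difference the size of 1.5-fold or more was held by 74 genes higher and 72 genes lower in Combo, and one the size of 2-fold by 5 and 3 genes. What follows is therefore a description of values. List counts at the unadjusted p are to be read against 5.56% of all genes on the higher side and 8.55% on the lower. Those of separate groups are to be read against 10.5% and 14.4%. Lists and members were chosen with earlier results of these data known, so such a reading is no independent test of a list. Counts of 1 or 2 members in a list can go to 0 when a single library is left out.

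**Figure D1:**
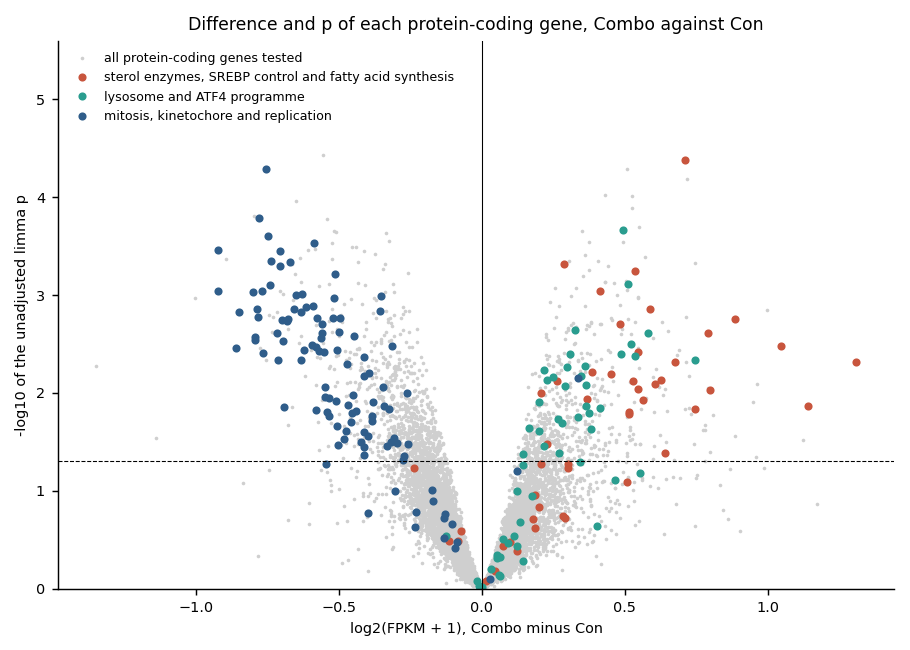
Log2 difference (Combo minus Con, x axis) and -log10 of the unadjusted limma p (y axis) of the 10751 protein-coding genes, with members of the sterol and fatty acid lists, of the lysosome and ATF4 lists and of the mitosis, kinetochore and replication lists in colour. The dashed line stands at an unadjusted p of 0.05. Sterol and fatty acid genes reach 1.31 on the right, and the mitotic genes spread to -0.92 on the left.

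The genes furthest apart on the higher side included lipid enzymes, chemokines and regulators. SCD, the desaturase that makes oleate from stearate, had 203, 330 and 368 FPKM in Combo, against 160, 136 and 73.1 FPKM in Con. Its log2 difference was 1.31 (SE 0.37), the greatest among genes with an unadjusted p under 0.05 and groups that did not overlap. INSIG1, which holds the SREBP escort protein in the endoplasmic reticulum, had 45.7, 84.2 and 84.3 FPKM in Combo, against 31.9, 42.3 and 21.2 FPKM in Con (1.14, SE 0.39). CXCL8, a neutrophil chemokine, was low in both groups at 2.53, 2.79 and 4.58 FPKM in Combo, against 1.26, 0.684 and 0.895 FPKM in Con (1.12, SE 0.45). TSC22D3, a glucocorticoid-induced leucine zipper protein, had 10.4, 9.97 and 18.3 FPKM in Combo, against 8.36, 5.48 and 4.35 FPKM in Con. In each of these the groups were separate, but the spread within a group was wide, and Combo 3 was the highest Combo library for SCD, INSIG1, CXCL8 and TSC22D3. BHLHE40, a clock-linked repressor, had a log2 difference of 0.89 (SE 0.35). RAB27B, a small GTPase of vesicle docking, had one of 0.75 (SE 0.15), with 31.3, 25.3 and 33.8 FPKM in Combo, against 20.6, 13.9 and 18.4 FPKM in Con.

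On the lower side the leaders were an inhibitor of differentiation and genes of mitosis. ID1, which blocks basic helix-loop-helix factors and answers to BMP signals, had 12.7, 15.2 and 8.44 FPKM in Combo, against 22.9, 28.0 and 23.5 FPKM in Con (log2 difference -1.003, SE 0.23). CDC20, the activator of the anaphase-promoting complex (chromosome 1, 43358955 to 43363203, hg38), had 16.9, 15.4 and 10.98 FPKM in Combo, against 27.3, 33.2 and 23.8 FPKM in Con (-0.92, SE 0.21). KIF20A, a kinesin of the central spindle, had 5.36, 4.43 and 3.28 FPKM in Combo, against 9.93, 10.2 and 7.22 FPKM in Con (-0.92, SE 0.18). The Combo means of these genes were 0.490, 0.513 and 0.478 times the Con means, and no library of one group entered the range of the other. TK1, which phosphorylates thymidine in S phase, had a log2 difference of -0.86 (SE 0.23), and BIRC5, the survivin subunit of the chromosomal passenger complex, one of -0.85 (SE 0.20). APOBEC3B, a cytidine deaminase, had 2.64, 1.69 and 1.99 FPKM in Combo, against 3.34, 4.79 and 4.81 FPKM in Con (-0.77, SE 0.21).

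**Figure D2:**
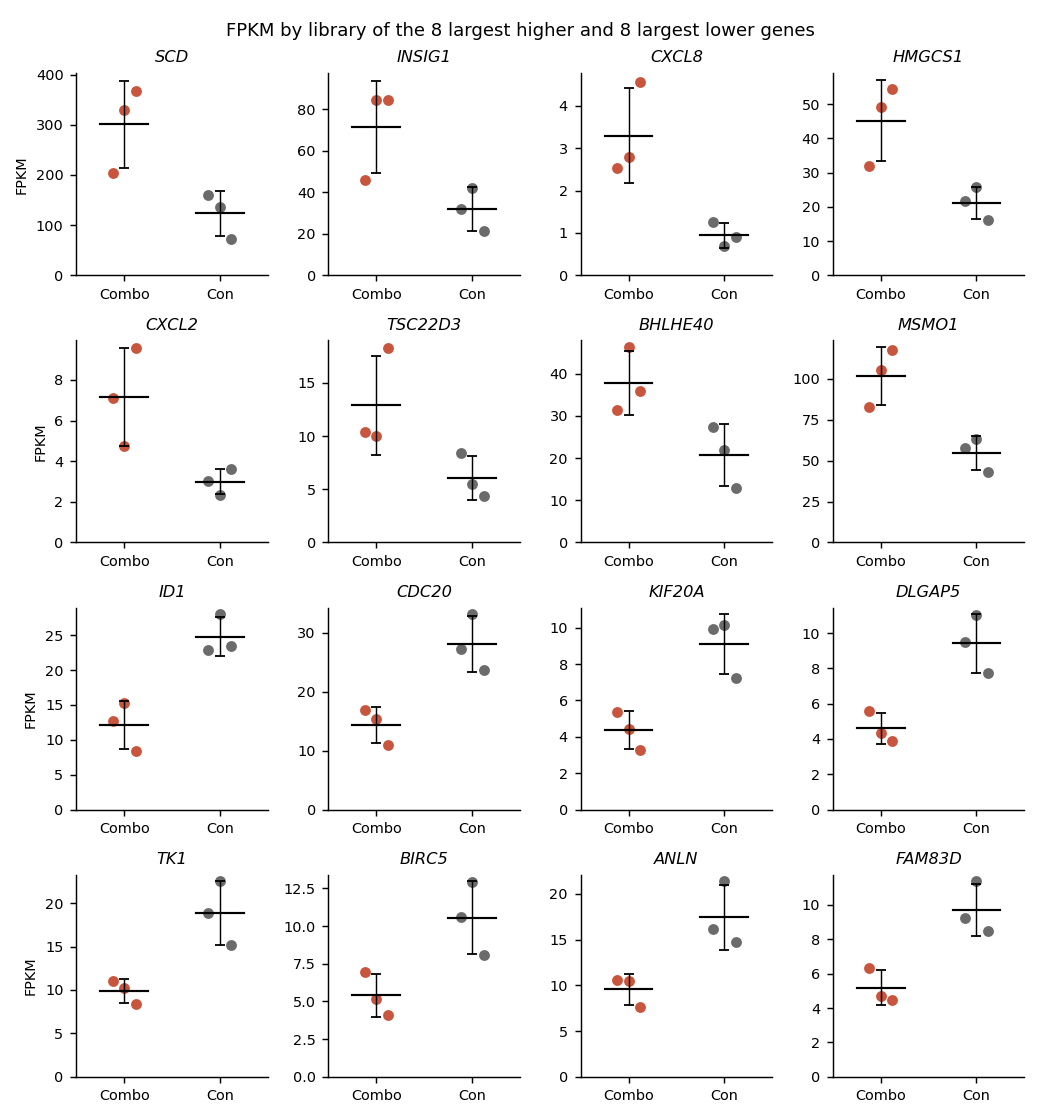
FPKM in each library (points) with the group mean and SD (bars, n = 3) for the 8 genes furthest higher and the 8 furthest lower in Combo among those with an unadjusted p under 0.05 and separate groups. Each panel has its own axis from 0, with Combo on the left. In SCD the Combo points lie at 203 to 368 FPKM, and in CDC20 they lie at 10.98 to 16.9 FPKM under all Con points.

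Of the 10 genes with the smallest p, only FAM83D was also among the 15 furthest higher or the 15 furthest lower genes with separate groups. DEPDC1B, a gene of mitotic entry, led with an unadjusted p of 3.66e-05 (limma adjusted p 0.122). It had 1.97, 1.78 and 1.65 FPKM in Combo, against 2.86, 3.47 and 3.01 FPKM in Con. STARD4, a carrier of sterols between membranes, came next with 14.2, 17.4 and 18.5 FPKM in Combo, against 10.8, 10.1 and 8.49 FPKM in Con (log2 difference 0.71, SE 0.11). HMGB2, a chromatin protein of dividing cells, had 15.8, 14.4 and 13.9 FPKM in Combo, against 25.2, 29.2 and 22.5 FPKM in Con (-0.75, SE 0.12). RND3, a small GTPase that loosens actin stress fibres, had 55.8, 49.1 and 57.4 FPKM in Combo, against 37.3, 27.8 and 32.7 FPKM in Con (0.72, SE 0.12). In these 4 genes the groups were separate. The same list of 10 held BTBD19, OSTM1, GPR1 and FOXF1 on the higher side, with log2 differences of 0.43 to 0.53, and NUDT1 and FAM83D on the lower side at -0.65 and -0.80. OSTM1 is a lysosomal membrane protein that partners a chloride transporter, FOXF1 is a forkhead factor of mesenchyme, and NUDT1 clears oxidised nucleotides.

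Enzymes of sterol synthesis had higher means in Combo, with 1 exception before squalene and 1 after it. Among 9 enzymes of the mevalonate pathway 8 had a higher mean, 7 had an unadjusted p under 0.05 on the higher side against 5.56% of all genes, and the same number had separate groups. Their median log2 difference was 0.60, beside -0.01 for all genes. HMGCS1, which condenses acetyl units to HMG-CoA (chromosome 5, 43289395 to 43313512, hg38), had 31.8, 49.1 and 54.5 FPKM in Combo, against 21.6, 25.6 and 16.2 FPKM in Con (log2 difference 1.05, SE 0.28). MVD, the decarboxylase of the pathway, stood at 0.80 (SE 0.26), IDI1, the isomerase, at 0.67 (SE 0.19), and FDPS, which makes farnesyl diphosphate, at 0.56 (SE 0.19). PMVK, the phosphomevalonate kinase, was the exception, with 9.68, 11.03 and 8.66 FPKM in Combo, against 10.8, 11.7 and 12.5 FPKM in Con.

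From squalene to cholesterol, 12 of 13 enzymes had a higher mean in Combo, 9 passed an unadjusted p of 0.05 on the higher side and 0 on the lower, and the median log2 difference was 0.41. MSMO1, the methyl sterol oxidase, had 82.5, 105 and 118 FPKM in Combo, against 57.7, 63.5 and 43.2 FPKM in Con (0.88, SE 0.22). DHCR7, which reduces 7-dehydrocholesterol in the last step, had 50.3, 57.9 and 72.4 FPKM in Combo, against 38.1, 37.5 and 27.5 FPKM in Con (0.79, SE 0.20). SQLE, the squalene epoxidase, stood at 0.55 (SE 0.15) and LSS, the cyclase that forms lanosterol, at 0.51 (SE 0.18). LBR, a sterol reductase that also anchors lamins, differed by -0.08 and did not pass an unadjusted p of 0.05. The level of a list in a library was taken as the median over its members of log2(FPKM + 1) minus the gene's Con mean. For the mevalonate enzymes it was 0.36, 0.57 and 0.79 in Combo and ran from -0.21 to 0.22 in Con. For the later enzymes it was 0.28, 0.45 and 0.59 in Combo and ran from -0.14 to 0.14 in Con. Combo 3 was highest in both lists, and Con 3, the shallowest library, was lowest.

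Each arm against the same Con libraries gave medians for the mevalonate enzymes of 0.60 in Combo, 0.63 in Rx and -0.13 in IR. For the later enzymes they were 0.41 in Combo, 0.43 in Rx and -0.12 in IR. The 3 comparisons share their Con libraries, and the differences between them were not tested. For HMGCS1 itself the log2 difference was 1.05 in Combo, 0.79 in Rx and -0.15 in IR.

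Genes that sense and take up sterol had a median of 0.30 over 9 measured members, with 4 past an unadjusted p of 0.05 on the higher side. Without Con 1 that median was 0.49. LPIN1, a phosphatidate phosphatase that also acts on SREBP, had 17.3, 20.96 and 23.1 FPKM in Combo, against 12.6, 14.4 and 12.6 FPKM in Con (0.59, SE 0.14). SREBF2, the factor for sterol genes, had 43.2, 52.6 and 50.9 FPKM in Combo, against 39.4, 41.9 and 36.9 FPKM in Con, with separate groups and an unadjusted p of 0.0590. SREBF1, the factor for fatty acid genes, differed by 0.18 (SE 0.13) and SCAP, the escort protein, by -0.07 (SE 0.06). Genes that move cholesterol out of lysosomes and cells had a median of 0.23 over 8 members, with 2 past the unadjusted p. NPC1, the lysosomal exporter of cholesterol, had 10.9, 12.8 and 16.5 FPKM in Combo, against 9.71, 6.83 and 6.31 FPKM in Con (0.75, SE 0.21). NPC2, its soluble partner, had 32.0, 31.8 and 32.4 FPKM in Combo, against 28.1, 24.2 and 23.0 FPKM in Con (0.35, SE 0.10). The median of this list was 0.12 when low genes were not filtered out or when only genes of at least 5 FPKM were kept.

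Fatty acid enzymes varied among themselves. Of 17 members 16 had a higher mean, 9 passed the unadjusted p on the higher side, and the median was 0.26. The desaturases SCD, FADS2 and FADS1 stood at 1.31, 0.75 and 0.53, but FADS3 of the same family at 0.015. The activating enzymes ACSS2, ACSL3, ACSL4 and ACSL1, which link acetate or fatty acids to CoA, stood at 0.64, 0.53, 0.29 and 0.23. ACLY, which makes cytosolic acetyl-CoA from citrate, had 136, 143 and 170 FPKM in Combo, against 105, 111 and 103 FPKM in Con (0.48, SE 0.12). FASN, the synthase, had 118, 167 and 182 FPKM in Combo, against 104, 122 and 97.6 FPKM in Con, groups that overlapped. The elongases ELOVL1, ELOVL5 and ELOVL6 differed by 0.05, 0.10 and 0.08. Sphingolipid and phospholipid genes had a median of 0.04 over 20 members. Only PCYT2 of them passed the unadjusted p, 1 of 20 beside 5.56% of all genes on the higher side. It is an enzyme of phosphatidylethanolamine synthesis, with 7.63, 9.65 and 9.49 FPKM in Combo, against 5.23, 6.16 and 4.83 FPKM in Con.

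Promoters were compared for short elements, since these genes lay on one side together. RefSeq windows of 250 bases before to 50 bases after the gene's start (GRCh38.p14) matched 8631 of the 10751 genes. The letters CCAAT, bound by NF-Y beside SREBP in sterol promoters and also in mitotic promoters, were searched on both strands. They were in 8 of 10 windows of the later sterol enzymes (80.0%) and 4 of 7 of the mevalonate enzymes (57.1%), beside 36.6% of all windows. Windows of SREBP control held them in 4 of 8 (50%) and of the fatty acid list in 8 of 15 (53.3%). The mitotic lists below, which had lower means, held them in 10 of 13 kinesin windows (76.9%) and 11 of 15 kinase windows (73.3%). Kinetochore windows held them in 11 of 17 (64.7%) and proliferation marker windows in 5 of 10 (50%). The letters were therefore not particular to the higher lists. A sterol element of the letters TCACNCCAC was in 1 of 40 windows of the sterol and fatty acid lists and in 1.12% of all windows. HMGCS1 and MSMO1 are shown because they lead their lists. HMGCS1 (chr5:43313363-43313662, minus strand) has 2 CCAAT boxes and MSMO1 (chr4:165327419-165327718, plus strand) has 4, in capitals, as CCAAT or, read from the other strand, ATTGG. Here and below, a match is a description of the letters in this window. The share of a list follows from which genes it holds, whatever their values in Combo.
HMGCS1: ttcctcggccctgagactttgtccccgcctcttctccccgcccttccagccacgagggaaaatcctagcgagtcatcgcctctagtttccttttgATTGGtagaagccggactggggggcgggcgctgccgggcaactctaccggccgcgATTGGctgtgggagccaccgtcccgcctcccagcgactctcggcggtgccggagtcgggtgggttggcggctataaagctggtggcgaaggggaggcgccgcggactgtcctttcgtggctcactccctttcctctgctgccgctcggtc
MSMO1: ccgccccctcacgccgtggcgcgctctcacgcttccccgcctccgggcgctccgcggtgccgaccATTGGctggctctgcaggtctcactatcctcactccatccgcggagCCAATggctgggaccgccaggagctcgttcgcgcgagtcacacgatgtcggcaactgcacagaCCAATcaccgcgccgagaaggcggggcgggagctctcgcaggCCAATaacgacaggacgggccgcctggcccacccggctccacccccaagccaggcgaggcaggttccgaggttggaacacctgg

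Mitotic genes had lower means in Combo in all 4 lists. Of 13 kinesins of the spindle, 13 had an unadjusted p under 0.05 on the lower side and separate groups, against 8.55% and 14.4% of all genes. Their median log2 difference was -0.59 and their range -0.92 to -0.27. CENPE, the kinetochore kinesin, had 2.01, 1.93 and 1.42 FPKM in Combo, against 3.06, 3.501 and 2.94 FPKM in Con (-0.59, SE 0.11). KIF15, which helps to hold spindle poles apart, had 1.73, 1.12 and 0.900 FPKM in Combo, against 2.42, 3.14 and 2.37 FPKM in Con (-0.71, SE 0.15). KIF11, the main motor for pole separation, stood at -0.59 and KIF18A, which limits microtubule growth, at -0.27.

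Of 22 mitotic kinases, cyclins and checkpoint genes 22 had a lower mean, 18 passed the unadjusted p, and the median was -0.58. CCNB1, the cyclin of mitotic entry, had 15.5, 13.8 and 10.5 FPKM in Combo, against 24.4, 27.0 and 19.2 FPKM in Con (-0.78, SE 0.19). CDK1, its kinase, had 6.36, 6.29 and 5.19 FPKM in Combo, against 9.53, 12.1 and 7.96 FPKM in Con (-0.63, SE 0.18). TPX2, the activator of Aurora A, had 14.4, 11.2 and 9.89 FPKM in Combo, against 20.6, 25.8 and 16.5 FPKM in Con (-0.77, SE 0.17). PLK1, a kinase of spindle and cytokinesis, stood at -0.56 (SE 0.14) and NEK2, a centrosome kinase, at -0.67 (SE 0.14). UBE2C, which supplies ubiquitin to the anaphase-promoting complex, had 15.7, 14.3 and 16.5 FPKM in Combo, against 26.6, 23.2 and 14.4 FPKM in Con, where Con 3 lay within the Combo range. WEE1 and CDC25B, which act against each other on CDK1, differed by -0.13 and -0.17 and did not pass.

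Kinetochore and centromere genes gave the same picture, with 21 of 21 lower, 19 past the unadjusted p and a median of -0.54. The count of 19 was 11 without Combo 3 and 10 without Con 2. NDC80, which binds microtubules, had 2.40, 2.42 and 2.06 FPKM in Combo, against 4.60, 4.90 and 4.00 FPKM in Con (-0.74, SE 0.15). SPC24, of the same complex, had 1.26, 1.201 and 1.25 FPKM in Combo, against 2.67, 3.33 and 2.34 FPKM in Con (-0.75, SE 0.14). Proliferation markers and their factors had a median of -0.55, with 9 of 13 past the unadjusted p on the lower side. MKI67, the Ki-67 antigen (chromosome 10, 128096659 to 128126385, hg38), had 7.65, 6.72 and 5.11 FPKM in Combo, against 12.7, 13.1 and 10.1 FPKM in Con (-0.79, SE 0.21). FOXM1, the factor for genes of G2 and mitosis, had 4.11, 4.16 and 3.52 FPKM in Combo, against 7.15, 9.13 and 6.31 FPKM in Con (-0.78, SE 0.14). LIN9 and LIN54, core subunits of the complex that FOXM1 binds, differed by -0.17 and -0.13.

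By library the kinesins stood at -0.41, -0.54 and -0.76 in Combo and ran from -0.20 to 0.21 in Con. In all 4 mitotic lists Combo 3 was lowest and Con 2 highest, and no Combo library reached the lowest Con library. Without Combo 3 the medians were -0.49 for kinesins, -0.52 for kinases, -0.48 for kinetochore genes and -0.49 for proliferation markers. Each arm against the same Con libraries gave the kinesins a median of -0.59 in Combo, -0.21 in Rx and -0.36 in IR. The kinetochore list had -0.54 in Combo, -0.14 in Rx and -0.28 in IR, and the kinase list -0.58 in Combo, -0.19 in Rx and -0.27 in IR. Differences between these arms were not tested. MKI67 had -0.79 in Combo, -0.41 in Rx and -0.73 in IR, so its values in the irradiated arms lay close together.

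**Figure D3:**
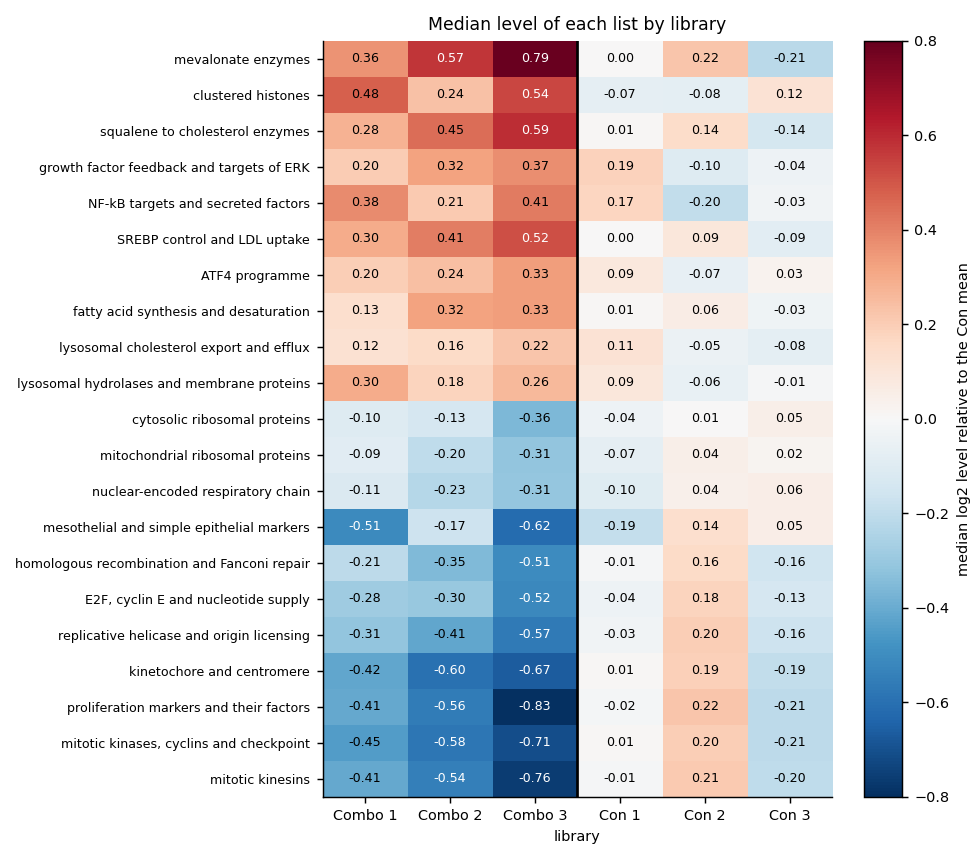
Median level of selected gene lists in each Combo and Con library, as the median over members of log2(FPKM + 1) minus the gene's Con mean. Lists were selected by the size of their median difference between these groups, so some separation follows from the choice. Rows are lists and columns are libraries, red for above and blue for below the Con mean. Mevalonate enzymes stand at 0.36 to 0.79 and mitotic kinesins at -0.76 to -0.41 in the Combo libraries.

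CHR elements, with the letters TTTGAA, were searched on both strands in the same windows. They were in 33 of 55 windows of the 4 mitotic lists (60.0%), beside 9.23% of all windows, and 9 of 13 kinesin windows held one. The members were listed as mitotic genes, so this share is a trait of the lists whatever their values in Combo. Its link to the lower values was not tested. CDC20 and MKI67 are shown as members with low values in Combo that hold both a CHR and a CCAAT element. In CDC20 (chr1:43358731-43359030, plus strand) the capitals mark CHR at 178 and 65 bases and CCAAT at 100 and 55 bases before the start. In MKI67 (chr10:128126374-128126673, minus strand) they mark CHR at 47 and 29 bases and CCAAT at 98 and 24 bases before the start, the last pair sharing 1 base. TTCAAA and ATTGG are the same letters read on the other strand.
CDC20: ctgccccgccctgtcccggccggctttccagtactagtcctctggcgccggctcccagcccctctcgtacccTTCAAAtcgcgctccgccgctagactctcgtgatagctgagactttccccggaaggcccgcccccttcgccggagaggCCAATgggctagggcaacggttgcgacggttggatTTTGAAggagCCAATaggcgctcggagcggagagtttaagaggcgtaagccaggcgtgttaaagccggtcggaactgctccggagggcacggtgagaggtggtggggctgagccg
MKI67: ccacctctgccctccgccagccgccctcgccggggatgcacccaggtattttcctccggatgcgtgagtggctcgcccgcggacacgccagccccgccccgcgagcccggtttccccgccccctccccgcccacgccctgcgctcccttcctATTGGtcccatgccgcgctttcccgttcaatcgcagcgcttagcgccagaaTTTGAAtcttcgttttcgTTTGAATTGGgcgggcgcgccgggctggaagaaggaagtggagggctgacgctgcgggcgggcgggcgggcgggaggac

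Replication genes also had lower means in Combo, with list medians nearer 0 than those of mitotic genes. Among 18 genes of the replicative helicase and origin licensing 18 had a lower mean, 16 passed the unadjusted p and the median was -0.41. GINS2, a subunit of the active helicase, had 1.46, 1.45 and 0.929 FPKM in Combo, against 2.58, 3.35 and 2.47 FPKM in Con (-0.74, SE 0.16). MCM4, of the helicase ring, had 12.4, 10.8 and 9.20 FPKM in Combo, against 16.4, 18.7 and 13.99 FPKM in Con (-0.56, SE 0.14). CDC6 and DBF4, which load and fire origins, differed by -0.23 and -0.09 and did not pass. Among 21 genes of E2F control, cyclin E and nucleotide supply, 17 passed the unadjusted p on the lower side and 1 on the higher, with a median of -0.38. RRM2, the regulated subunit of ribonucleotide reductase, had 4.98, 4.03 and 3.36 FPKM in Combo, against 7.13, 7.68 and 5.18 FPKM in Con (-0.58, SE 0.20). E2F1, an activating factor, had 4.50, 3.96 and 4.12 FPKM in Combo, against 5.66, 7.07 and 4.79 FPKM in Con. E2F7, a repressor of the same family and itself a p53 target, lay on the other side with 7.94, 9.52 and 8.94 FPKM in Combo, against 6.66, 7.88 and 5.84 FPKM in Con (0.34, SE 0.10). CCNE1, the cyclin of S phase entry, differed by 0.03 (SE 0.11). Without Combo 3 the medians were -0.34 for the helicase list and -0.28 for the E2F list. The counts of 16 and 17 were 9 and 10 without Combo 3, and 8 in both lists without Con 2.

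E2F elements, searched as TTCCCGCC, TTTCCCGC, TTTGGCGC or TTCGCGCC on both strands, were in 20 of 34 windows of these 2 lists (58.8%), beside 9.55% of all windows. These forms can overlap each other. As with CHR, the share is a trait of the listed genes, and its link to their lower values was not tested. GINS2 (chr16:85688905-85689204, minus strand) is shown as the member with the lowest log2 difference of its list, and the capitals mark 2 overlapping forms that begin 32 and 31 bases before the start.
GINS2: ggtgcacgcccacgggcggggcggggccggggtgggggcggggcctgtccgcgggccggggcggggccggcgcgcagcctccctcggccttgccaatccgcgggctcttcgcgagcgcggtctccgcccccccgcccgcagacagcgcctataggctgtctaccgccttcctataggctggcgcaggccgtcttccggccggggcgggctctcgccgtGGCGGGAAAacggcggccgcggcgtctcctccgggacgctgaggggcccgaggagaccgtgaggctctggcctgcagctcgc

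Genes of the G1 phase stayed near their Con values, with a median of 0.04 over 13 members. Of these 1 passed the unadjusted p on the higher side and 2 on the lower, beside 5.56% and 8.55% of all genes. The median was -0.02 without Combo 2 and 0.12 without Con 1. CDKN1A, the p21 inhibitor of cyclin-dependent kinases, had 195, 242 and 194 FPKM in Combo, against 135, 151 and 157 FPKM in Con (0.51, SE 0.11, limma adjusted p 0.139). CDKN2C, the p18 inhibitor, had 1.17, 1.72 and 0.961 FPKM in Combo, against 1.75, 2.52 and 1.64 FPKM in Con. CDK4, the G1 kinase, had 36.0, 33.2 and 29.6 FPKM in Combo, against 36.7, 39.3 and 38.4 FPKM in Con.

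The measured histone genes of the clusters had higher means in Combo, while most replication genes had lower means. Of 16 listed, 8 were measured, all 8 had a higher mean and 5 passed the unadjusted p (3 without Combo 1), with a median of 0.42. HIST1H2AC had 14.8, 10.3 and 13.3 FPKM in Combo, against 8.88, 7.63 and 9.17 FPKM in Con (0.52, SE 0.14). HIST1H2BK had 84.3, 68.7 and 86.8 FPKM in Combo, against 51.9, 51.6 and 68.7 FPKM in Con (0.48, SE 0.15). The median of the list against Con was 0.42 in Combo, 0.18 in Rx and 0.39 in IR. With no filter on low values more histone genes entered, and the median was 0.16. These genes are near copies of each other, so reads may be split among them, and the share with a poly(A) tail is not known from the labels.

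Repair genes were read as 2 lists. Of 14 homologous recombination and Fanconi genes 13 had a lower mean, 9 passed the unadjusted p on the lower side (5 without Con 2), and the median was -0.35. Kept to genes of at least 5 FPKM, the median was -0.15. RAD54L, which remodels the paired strands, had 1.82, 1.32 and 1.35 FPKM in Combo, against 2.66, 4.08 and 2.53 FPKM in Con (-0.70, SE 0.16). EXO1, which resects ends, had 2.06, 1.42 and 0.985 FPKM in Combo, against 2.84, 3.23 and 2.40 FPKM in Con (-0.64, SE 0.17). End joining genes had a median of -0.15 over 12 members, with 4 past the unadjusted p on the lower side and 1 on the higher. That median was -0.05 without Con 2, and the count of 4 was 1 without Combo 3, Con 2 or Con 3. PARP1 had 24.1, 25.3 and 22.6 FPKM in Combo, against 27.6, 31.7 and 27.6 FPKM in Con (-0.26, SE 0.08). DCLRE1C, the Artemis nuclease, had 4.71, 4.40 and 4.49 FPKM in Combo, against 3.45, 3.66 and 3.71 FPKM in Con (0.27, SE 0.07).

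Targets of p53 had a median of 0.07 over 30 members, beside -0.01 for all genes. Of these 25 had a higher mean, 7 passed the unadjusted p on the higher side and 0 on the lower. The median was 0.03 without Combo 2. By library the list level was 0.08, 0.16 and -0.003 in Combo, against -0.02, -0.03 and 0.07 in Con, an overlap. GDF15, a secreted factor also induced by ATF4, had 114, 180 and 143 FPKM in Combo, against 81.5, 87.1 and 92.2 FPKM in Con (0.71, SE 0.20). SESN2, a sestrin under both p53 and ATF4, had 25.1, 24.3 and 28.7 FPKM in Combo, against 18.7, 16.2 and 19.7 FPKM in Con (0.49, SE 0.09). TP53INP1 had 5.89, 6.95 and 6.19 FPKM in Combo, against 5.04, 4.45 and 5.06 FPKM in Con (0.33, SE 0.09). MDM2, the ligase that degrades p53, had 39.1, 35.3 and 37.2 FPKM in Combo, against 28.3, 26.9 and 34.4 FPKM in Con (0.31, SE 0.15, limma adjusted p 0.397). Other classic targets overlapped between the groups, among them FDXR at -0.15, BAX at -0.09 and BTG2 at 0.09. The list median against the same Con libraries was 0.07 in Combo, -0.01 in Rx and 0.19 in IR. BTG2 was at 0.09 in Combo, -0.09 in Rx and 0.41 in IR, and CDKN1A was at 0.51 in Combo, 0.19 in Rx and 0.49 in IR. BCL2 family genes had a median of 0.03 over 13 members, and its sign turned without Combo 2, Con 1 or Con 2. MCL1, a survival member, had 117, 109 and 114 FPKM in Combo, against 107, 84.1 and 93.3 FPKM in Con, and the killer PMAIP1 had 55.5, 40.8 and 48.2 FPKM in Combo, against 37.5, 25.6 and 41.1 FPKM in Con.

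Lysosomal genes had higher means in Combo by small amounts. All 26 hydrolases and membrane proteins had a higher mean, 18 passed the unadjusted p (11 without Con 2), 15 had separate groups, and the median was 0.22. NEU1, a sialidase, had 9.46, 9.37 and 10.1 FPKM in Combo, against 7.22, 5.31 and 6.96 FPKM in Con (0.51, SE 0.11). TPP1, a peptidase, had 37.7, 33.2 and 32.4 FPKM in Combo, against 30.0, 20.9 and 20.95 FPKM in Con (0.52, SE 0.14). LAMP2, a membrane protein, had 22.2, 21.6 and 21.7 FPKM in Combo, against 19.5, 16.2 and 16.1 FPKM in Con (0.33, SE 0.08). CTSD, an aspartyl protease, had 51.4, 48.8 and 55.6 FPKM in Combo, against 44.8, 35.4 and 40.9 FPKM in Con (0.36, SE 0.10). Con 1 was the highest Con library for each of these 4 genes. Subunits of the proton pump, the V-ATPase, had a median of 0.08 with 3 of 16 past the unadjusted p, and 0.03 without Con 1. Autophagy genes had a median of 0.10 with 3 of 22 past it, beside 5.56% of all genes on the higher side. SQSTM1, the cargo adaptor that also answers to NRF2, had 79.2, 74.1 and 91.1 FPKM in Combo, against 61.5, 50 and 60.0 FPKM in Con (0.50, SE 0.11). The ligation genes ATG5, ATG12 and ATG16L1 differed by -0.04, 0.09 and 0.05. TFEB, the factor for lysosomal genes, had 0.896, 1.04 and 1.15 FPKM in Combo, against 1.13, 1.49 and 1.23 FPKM in Con, and TFE3 differed by 0.10. The CLEAR letters TCACGTGA, on both strands, were in 6 of 55 windows of the lysosome, V-ATPase, autophagy and cholesterol export lists (10.9%), beside 2.10% of all windows. Of these 6 windows 4 were lysosomal and 2 of the V-ATPase. The lysosomal list stood at 0.22 in Combo, 0.14 in Rx and 0.16 in IR against the same Con libraries.

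Genes of the ATF4 response had a median of 0.27 over 19 members, with 10 past the unadjusted p on the higher side (5 without Combo 3) and 0 on the lower. DDIT3, the CHOP factor, had 16.2, 14.5 and 19.3 FPKM in Combo, against 12.6, 8.87 and 11.02 FPKM in Con (0.58, SE 0.15). TRIB3, a pseudokinase induced by CHOP, had 23.8, 21.5 and 28.2 FPKM in Combo, against 18.6, 13.3 and 18.1 FPKM in Con (0.53, SE 0.15). CEBPB had 63.7, 73.6 and 77.4 FPKM in Combo, against 58.2, 48.8 and 45.6 FPKM in Con (0.49, SE 0.13). ASNS, asparagine synthetase, stood at 0.38 (SE 0.13), while the serine pathway enzymes PHGDH, PSPH, SHMT2 and MTHFD2 differed by -0.02 to 0.07. ATF4 itself, which is controlled mainly in translation, differed by 0.11 (SE 0.10). The list had 0.27 in Combo, 0.19 in Rx and 0.06 in IR. The CARE letters TGATGNAA were in 6 of 31 windows of the ATF4, transporter and synthetase lists (19.4%), beside 1.53% of all windows. Amino acid transporters had a median of 0.13 with 3 of 13 past the unadjusted p, which was 1 without Combo 1 and 0 without Combo 3, Con 1 or Con 2. Among the 3 was SLC7A11, the cystine carrier, with 21.1, 21.9 and 26.1 FPKM in Combo, against 15.5, 16.5 and 21.3 FPKM in Con. Of 20 cytosolic tRNA synthetases 3 passed it on each side, and 1 on each side without Combo 3 or without Con 2. The 3 on the lower side were also 1 without Con 3. AARS (0.32), CARS (0.23) and MARS (0.18) were the higher ones, and KARS (-0.24), FARSB (-0.23) and QARS (-0.21) the lower ones.

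Chaperones were read as 2 lists. In the endoplasmic reticulum 19 of 22 genes had a higher mean, 8 passed the unadjusted p on the higher side (5 without Combo 3 or Con 2), and the median was 0.14. XBP1, the spliced factor of the unfolded protein response, had 15.8, 18.1 and 18.8 FPKM in Combo, against 14.1, 12.2 and 14.5 FPKM in Con (0.35, SE 0.10). ERN1, the sensor that splices it, had 3.24, 2.99 and 4.05 FPKM in Combo, against 2.70, 2.06 and 1.94 FPKM in Con (0.45, SE 0.13). HSPA5, the main chaperone BiP, had 201, 194 and 192 FPKM in Combo, against 173, 174 and 179 FPKM in Con (0.16, SE 0.07). Heat shock proteins of the cytosol and mitochondria had a median of -0.08, within the middle 50% of all genes, and 2 of 18 passed the unadjusted p on the lower side, beside 8.55% of all genes. That count was 0 without Combo 2, Combo 3, Con 2 or Con 3. The median was -0.02 without Combo 3, -0.03 without Con 2, -0.13 without Combo 2 and -0.16 without Con 1. HSP90AB1 had 673, 613 and 597 FPKM in Combo, against 681, 749 and 761 FPKM in Con (-0.22, SE 0.09).

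Antioxidant genes under NRF2 had a median of 0.10 over 21 members, with 7 past the unadjusted p on the higher side. It was 0.05 when genes under 5 FPKM were left out. TXNRD1, thioredoxin reductase, had 127, 115 and 144 FPKM in Combo, against 94.7, 79.3 and 88.5 FPKM in Con (0.55, SE 0.10). FTH1, the ferritin heavy chain, had 150, 154 and 174 FPKM in Combo, against 114, 105 and 110 FPKM in Con (0.54, SE 0.13), and its many pseudogenes make its reads uncertain. HMOX1, which splits haem, had 4.11, 4.43 and 4.87 FPKM in Combo, against 3.65, 3.13 and 2.54 FPKM in Con (0.42, SE 0.13). NQO1, a classic target, had 62.7, 65.9 and 63.1 FPKM in Combo, against 55.0, 72.7 and 64.2 FPKM in Con (0.01, SE 0.13), and TXN, PRDX1 and SRXN1 differed by -0.20, -0.15 and -0.20. Among genes of metal handling, SLC39A14, a zinc and iron importer, had 24.95, 24.1 and 25.7 FPKM in Combo, against 21.7, 20.7 and 20.5 FPKM in Con (0.24, SE 0.06). MT2A, a metallothionein, had 184, 131 and 233 FPKM in Combo, against 172, 73.0 and 60.0 FPKM in Con, where Con 1 overlapped Combo.

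Inflammatory and growth factor genes mostly had higher means in Combo, with a wide spread in Con. NF-kB targets and secreted factors had a median of 0.31 over 17 members, with 6 past the unadjusted p on the higher side. That count was 2 without Combo 3 and 3 without Con 2 or Con 3. CXCL2, a chemokine, had 7.13, 4.76 and 9.59 FPKM in Combo, against 3.03, 2.35 and 3.62 FPKM in Con (1.00, SE 0.24). IL1B had 2.72, 2.75 and 3.45 FPKM in Combo, against 1.85, 1.43 and 1.17 FPKM in Con (0.68, SE 0.20). SOD2 had 24.4, 16.3 and 29.5 FPKM in Combo, against 18.7, 7.80 and 9.73 FPKM in Con, which overlapped. CCL2, a monocyte chemokine of the same list, had 0.744, 0.634 and 0.869 FPKM in Combo, against 1.05, 1.41 and 1.29 FPKM in Con. The subunits NFKB1 and NFKB2 differed by 0.02 and 0.07. Feedback genes of the ERK pathway had a higher mean in 13 of 13, a median of 0.32 and 6 past the unadjusted p. The count of 6 was 4 without Combo 1, Combo 3, Con 2 or Con 3, and 9 without Con 1. The median was 0.24 without Con 3. The list level was 0.20, 0.32 and 0.37 in Combo, against 0.19, -0.10 and -0.04 in Con, so Combo 1 and Con 1 nearly met. PHLDA1 had 41.6, 42.1 and 49.0 FPKM in Combo, against 37.2, 24.0 and 22.2 FPKM in Con (0.68, SE 0.19). SPRY4, a receptor kinase inhibitor, had 6.76, 6.87 and 6.80 FPKM in Combo, against 5.93, 4.13 and 4.52 FPKM in Con (0.43, SE 0.14), and ETV5 stood at 0.32 (SE 0.09). Immediate early factors had a median of 0.02. Of 14 members 1 passed the unadjusted p (ATF3, 0.27, SE 0.10), beside 5.56% of all genes on the higher side. EGR1 was at 40.3, 24.7 and 32.5 FPKM in Combo, against 60.6, 28.7 and 67.1 FPKM in Con. Interferon-stimulated genes had a median of 0.18 with 2 of 18 past the unadjusted p on the higher side, beside 5.56% of all genes. That count was 0 without Combo 1 or Con 2 and 1 without Combo 3. The median was 0.07 without Combo 1 or without Con 2 and 0.29 without Combo 2. Genes of MHC class I presentation had a median of 0.08, which was 0.044 without Combo 1 and 0.035 without Con 2. PSMB9, an immunoproteasome subunit, had 10.9, 8.81 and 7.83 FPKM in Combo, against 10.8, 11.97 and 12.1 FPKM in Con.

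Hypoxia and matrix genes varied more among Con libraries than between the groups. Of 28 hypoxia and glycolysis genes 1 passed the unadjusted p, on the higher side, beside 5.56% of all genes. The list had a median of 0.18, with 0 members having separate groups on either side. Its level was 0.12, 0.15 and 0.18 in Combo, against 0.41, 0.02 and -0.52 in Con. Without Con 3 the median was -0.06, and without Con 1 it was 0.41 with 11 past the unadjusted p. ANGPTL4 had 13.3, 6.998 and 23.7 FPKM in Combo, against 19.6, 2.91 and 2.07 FPKM in Con, and CA9 had 7.39, 12.9 and 12.3 FPKM in Combo, against 19.0, 12.1 and 1.49 FPKM in Con. Mesenchymal and matrix genes had a median of 0.19 over 24 members and 0.09 without Con 3. Of these, 2 passed the unadjusted p on the higher side and 1 on the lower, beside 5.56% and 8.55% of all genes. On the higher side there were 9 without Con 1 and 0 without Combo 3, Con 2 or Con 3. MMP14, a membrane metalloproteinase, had 7.06, 8.93 and 10.6 FPKM in Combo, against 6.24, 5.48 and 5.29 FPKM in Con, with separate groups. Of 18 targets of the coactivators YAP and WWTR1, 1 passed the unadjusted p on the higher side, beside 5.56% of all genes. Their median was 0.10, and 0.02 without Con 2 or without Combo 2 and 0.04 without Combo 1.

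**Figure D4:**
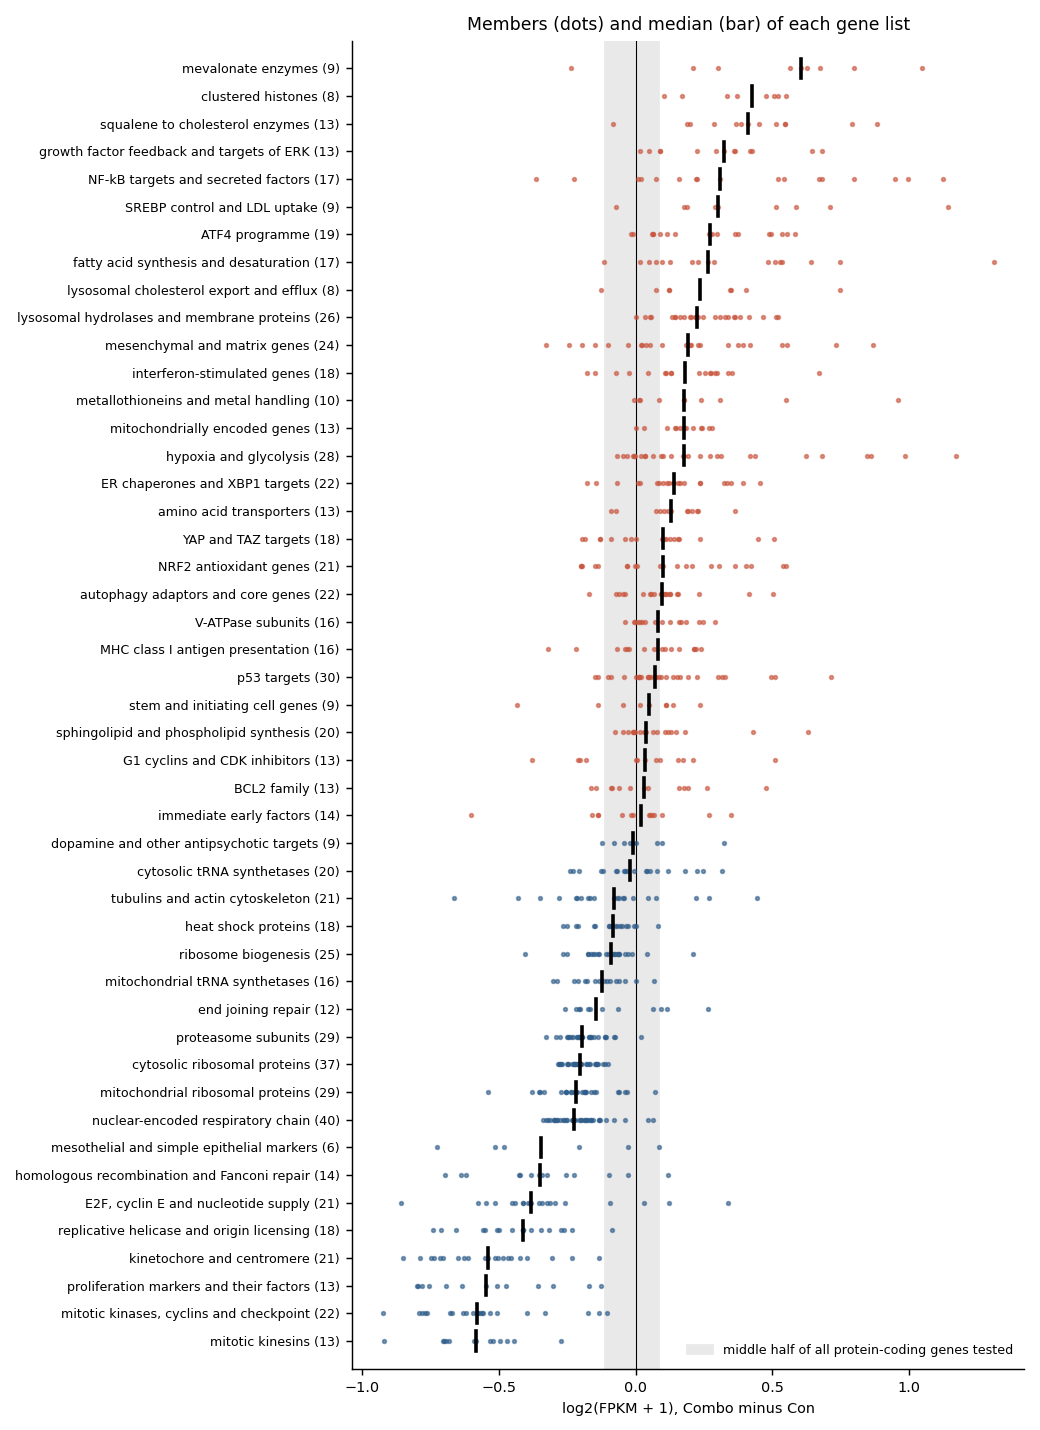
Log2 difference (Combo minus Con) of each measured member (dots) and the median (bar) of every gene list with at least 5 measured members, in order of the median. Numbers in brackets count measured members, and the grey band holds the middle 50% of all protein-coding genes tested (-0.11 to 0.09). Mevalonate enzymes are at the top with a median of 0.60 and mitotic kinesins at the bottom with -0.59.

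Ribosomal and mitochondrial protein genes had lower means in Combo by small amounts. All 37 cytosolic ribosomal protein genes had a lower mean and 29 had Combo below Con, against 14.4% of all genes, but only 1 passed the unadjusted p. The median was -0.20, and -0.13 without Combo 3. RPL5 had 139, 142 and 120 FPKM in Combo, against 147, 174 and 166 FPKM in Con. The list level was -0.10, -0.13 and -0.36 in Combo, against -0.04, 0.01 and 0.05 in Con, so Combo 3 lay apart from the other two. Mitochondrial ribosomal proteins had a median of -0.22, with 11 of 29 past the unadjusted p on the lower side. MRPL1 had 9.42, 9.02 and 8.16 FPKM in Combo, against 12.1, 13.5 and 14.5 FPKM in Con (-0.54, SE 0.10). Nuclear genes of the respiratory chain also had a median of -0.22, with 13 of 40 past it. SDHA, of complex II, had 21.7, 20.7 and 19.0 FPKM in Combo, against 24.1, 27.9 and 26.4 FPKM in Con (-0.34, SE 0.07). ATP5F1A, of the ATP synthase, had 39.2, 36.7 and 33.4 FPKM in Combo, against 41.0, 48.7 and 47.7 FPKM in Con (-0.32, SE 0.09). Proteasome subunits had a median of -0.20 with 11 of 29 past it. The proteasome count was 4 without Combo 2, 2 without Combo 3 and 3 without Con 2 or Con 3. The respiratory chain count was 21 without Combo 1, 20 without Con 1, 7 without Combo 2 or Con 2 and 4 without Combo 3 or Con 3. The mitochondrial ribosomal count was 6 without Combo 3 or Con 2. Against the same Con libraries the cytosolic ribosomal list had -0.20 in Combo, 0.04 in Rx and 0.21 in IR. The respiratory chain list had -0.22 in Combo, -0.02 in Rx and 0.08 in IR. The mitochondrial ribosomal list had -0.22 in Combo, -0.03 in Rx and 0.05 in IR. For the proteasome they were -0.20 in Combo, -0.003 in Rx and 0.02 in IR. Differences between the arms were not tested. Ribosome biogenesis genes had a median of -0.09 (-0.14 without Con 1) with 3 of 25 past the unadjusted p, beside 8.55% of all genes. That count was 1 without Combo 3, Con 2 or Con 3. FBL, the rRNA methyltransferase, led at -0.40 (SE 0.10). Mitochondrial tRNA synthetases had a median of -0.12 with 5 of 16 past the unadjusted p, and 3 without Combo 3, Con 2 or Con 3. The 13 genes of the mitochondrial genome had a higher mean in all 13, a median of 0.18 and 0 past the unadjusted p. This median was 0.05 without Con 1, 0.33 without Con 3 and 0.00 with quantile scaling.

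Gene length moved with these values. In the shortest quintile of genes, of 207 to 2991 bases, the median log2 difference was -0.08 and 13.7% were lower at an unadjusted p under 0.05. In the longest quintile, from 8306 bases, the median was 0.04 and 3.21% were lower. Combo 3 stood at -0.14 in the shortest quintile, and the other 5 libraries of the 2 groups between -0.07 and 0.02. Spearman's rank correlation between length and difference was 0.26 across 10751 genes, which are not independent replicates. With each library centred within quintiles of length, a setting added after the values were seen, the medians were -0.18 for cytosolic ribosomal proteins, -0.18 for mitochondrial ribosomal proteins, -0.19 for the respiratory chain and -0.15 for the proteasome. For kinesins it was then -0.56 and for mevalonate enzymes 0.62. Genes of at least 100 FPKM, which include the ribosomal proteins, had a median of -0.15. The part of length and depth in the ribosomal and mitochondrial values was not tested beyond this.

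**Figure D5:**
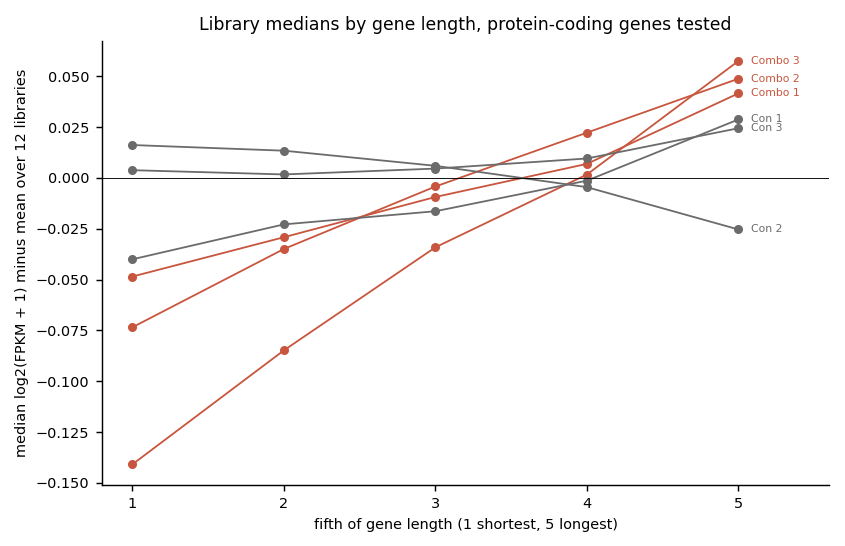
Median of log2(FPKM + 1) minus the gene's mean over the 12 libraries (y axis) in each quintile of gene length from shortest to longest (x axis), for the 3 Combo and 3 Con libraries. Combo 3 runs from -0.14 in the shortest quintile to 0.06 in the longest.

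The tubulin and actin list had a median of -0.08, within the middle 50% of all genes, with 16 of 21 lower. That median was -0.17 without Combo 1 and -0.16 without Combo 2. TUBA1B, an alpha tubulin, had 52.6, 52.2 and 39.0 FPKM in Combo, against 71.2, 85.8 and 71.5 FPKM in Con (-0.67, SE 0.14). TUBB4B and TUBB, beta tubulins, stood at -0.43 (SE 0.14) and -0.35 (SE 0.12), with separate groups. TUBB2B, another beta tubulin, was at 0.44, and the actin genes ACTB and ACTG1 at -0.20 and -0.17. In all, 5 of 21 tubulin and actin genes passed the unadjusted p on the lower side and 1 on the higher. The count of 5 was 2 without Combo 3 and 3 without Con 3.

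Markers of the cell of origin were checked in the same libraries. Of 16 mesothelial and simple epithelial markers, 6 were measured and 6 averaged under 0.1 FPKM. The list had a median of -0.34, which was -0.21 without Combo 3 and -0.57 without Combo 2. With no filter on low values that median was -0.026. Of the 6 measured markers, 5 had a lower mean and 1 a higher mean, and 3 passed the unadjusted p on the lower side. CALB2, calretinin, had 14.5, 15.3 and 13.6 FPKM in Combo, against 19.8, 33.9 and 22.0 FPKM in Con (-0.73, SE 0.19). KRT8 and KRT18, paired simple keratins, had log2 differences of -0.51 (SE 0.16) and -0.48 (SE 0.18), with separate groups; their genes lie side by side and may share reads. MSLN, mesothelin, had 25.2, 49.5 and 27.3 FPKM in Combo, against 29.2, 43.4 and 42.1 FPKM in Con, an overlap. BNC1 had 13.9, 11.96 and 14.2 FPKM in Combo, against 14.3, 11.7 and 15.1 FPKM in Con, and also overlapped. TM4SF1, the marker with a higher mean, had 25.98, 26.6 and 28.1 FPKM in Combo, against 30.2, 26.7 and 20.1 FPKM in Con. Its groups overlapped too, so the lower values were not shared by all measured markers. Of 20 stem and initiating cell genes 9 were measured, with a median of 0.05. Of these 1 passed the unadjusted p on the lower side, beside 8.55% of all genes. The median was 0.0012 without Combo 3 or without Con 2. ALDH1A3, an aldehyde dehydrogenase, had 15, 19.5 and 18.2 FPKM in Combo, against 18.7, 28.1 and 26.1 FPKM in Con, and CD44 had 45.5, 43.6 and 45.6 FPKM in Combo, against 48.5, 39.6 and 37.1 FPKM in Con. Of 29 dopamine, serotonin and related receptors and enzymes 9 were measured, a median of -0.01 and 0 past the unadjusted p. Its sign turned with single libraries, at 0.042 without Combo 3, 0.040 without Con 2 and -0.067 without Con 1. DRD4, a dopamine receptor gene, had 3.35, 4.55 and 3.61 FPKM in Combo, against 3.36, 4.74 and 4.24 FPKM in Con (-0.08, SE 0.18).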

How the data were processed

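RNA of MSTO-211H cells was sequenced in 12 libraries, 3 in each of 4 groups. Per the labels' protocols, Trizol and RNeasy columns were used for RNA, and libraries were made with a NEBNext Ultra kit and read on a NovaSeq instrument. The authors deposited 1 table of FPKM per gene and library, and hg38 is the build in the submitters' processing notes. Aligner, counter, annotation and strandedness were not given in the sources used here. Reads of near copies, of overlapping genes and of antisense pairs may therefore be shared. FPKM times gene length gave whole reads for 299515 of 299515 values above 0 (within 0.01), from which depth was taken.

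All 12 libraries were fitted with limma 3.58.1 (R 4.3.3) on log2(FPKM + 1) with a variance trend, for 13038 genes of every biotype with a mean of at least 1 FPKM. P-values were adjusted by Benjamini and Hochberg over all of them, with a threshold of 0.05, and tests were two-sided. A pseudocount of 1 makes the differences of low genes smaller than their fold. The rule for named genes took the 15 furthest higher and the 15 furthest lower with separate groups and an unadjusted p under 0.05, the 10 smallest p, up to 3 genes per list by p, the 10 smallest p in each direction among calls with the replicate number as a block, and a fixed set, and the text describes a part of them. Other members named were chosen after their values were seen. Members and lists were chosen with earlier results of these data known. Of 976 listed symbols 974 were found, 36 of them through another name. Alternatives covered pseudocount, filter, scaling, variance model, libraries, replicate numbers, recovered reads and gene length.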

Additional observations from a re-analysis of the deposited data

How the results depend on the processing

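No gene passed an adjusted p of 0.05 when any 1 library of the 2 groups was left out (0 to 0). Genes past it numbered 365 with library quality weights and 5 with no filter, of which MIR3180-4, MIR4256, MIR548AQ, RNA5SP197 and RNA5SP201 each averaged under 0.5 FPKM and were at 0 in every library of one group. With the replicate number as a block there were 90 (23 higher), and 301 (116 higher) with voom on recovered reads and that block. Libraries of Combo and Con with the same number had deviations that correlated at -0.01, 0.21 and -0.06, so the numbers were not taken to pair these groups, and not every library correlated best with its own number. Same-numbered libraries correlated at 0.19 to 0.28 between Rx and Con and at 0.16 to 0.35 between IR and Con, which are also in the fit. Between Combo and Rx they correlated at 0.21, 0.17 and 0.05, and between Combo and IR at -0.02, 0.18 and -0.21. The part of the spread that goes with the replicate numbers was not tested.

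Genes higher at an unadjusted p under 0.05 numbered 328 with TPM scaling, 1169 with weights, 392 at a mean of at least 5 FPKM and 374 without IR 3 and Combo 3, and ran from 316 to 839 as 1 library was left out. Lower genes numbered 1578 with weights and 543 without IR 3 and Combo 3, and ran from 407 to 1050. Genes with Combo above Con numbered 742 with TPM scaling and 705 at 5 FPKM, and 1476 to 2254 with 1 library left out, where fewer libraries have to separate. Genes with Combo below Con then numbered 1710 to 2840.

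The cause of the following moves was not tested. At 5 FPKM the list medians were 0.41 for SREBP control, 0.12 for cholesterol export, -0.15 for homologous recombination and 0.048 for NRF2. With no filter they were 0.12 for cholesterol export, 0.16 for histones, 0.058 for NRF2, 0.13 for metal handling, -0.026 for mesothelial markers and 0.0046 for immune, endothelial and fibroblast markers, whose main value was -0.11. Quantile scaling gave 0.065 for sphingolipids, 0.060 for the BCL2 family, 0.20 for the endoplasmic reticulum and a log2 difference of -0.020 for MT-ND5. Centring within quintiles of length, chosen after seeing the data, gave 0.071 for the BCL2 family, 0.072 for autophagy and 0.14 for NRF2. Voom gave -0.83 for kinesins (-0.82 with the block), -0.75 for kinases, -0.73 for kinetochores and -0.50 for homologous recombination. Sphingolipids were at 0.055 without IR 3 and Combo 3.

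With 1 library left out in turn, medians ran from 0.26 to 0.49 for SREBP control, 0.034 to 0.064 for sphingolipids, -0.019 to 0.12 for G1 genes, -0.17 to -0.047 for end joining, -0.037 to 0.062 for the BCL2 family and 0.069 to 0.12 for autophagy. They ran from 0.11 to 0.19 for the endoplasmic reticulum, 0.072 to 0.14 for NRF2, -0.022 to 0.054 for immediate early factors, -0.17 to -0.065 for tubulin and actin, 0.14 to 0.22 for metal handling and -0.57 to -0.21 for mesothelial markers. DRD4 ran from -0.19 to 0.0099.

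Of 178 named genes, 84 passed the adjusted p with weights, 42 with the block and 81 with voom and the block. Depth of 13.3 to 19.1 reads per kilobase at 1 FPKM limits the low genes.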

Other observations

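Transcription factors, which the lists above cover only in part, were read as a class from the family annotation in the deposited table. Of 893 tested factors 43 (4.82%) were higher in Combo at an unadjusted p under 0.05 and 35 (3.92%) lower, against 5.56% and 8.55% of all protein-coding genes, and their median log2 difference was 0.02. The zinc fingers of the C2H2 kind gave 11 higher and 9 lower of 399. The genes named here were chosen after their values were seen. EPAS1, the hypoxia factor HIF-2 alpha, had 15.7, 15.6 and 16.9 FPKM in Combo, against 13.4, 7.70 and 8.36 FPKM in Con (0.69, SE 0.19). BCL6, a transcriptional repressor of germinal centre B cells, had 5.49, 6.26 and 6.83 FPKM in Combo, against 5.06, 3.80 and 2.39 FPKM in Con (0.64, SE 0.21). MXD1, which competes with MYC for its partner MAX, had 3.54, 3.48 and 4.34 FPKM in Combo, against 2.52, 2.504 and 2.59 FPKM in Con (0.43, SE 0.09). ELF4, an ETS factor, stood at 0.55 (SE 0.15) and NPAS2, a partner of the clock, at 0.53 (SE 0.16). In each of these the groups were separate.

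On the lower side HMGB1, a chromatin protein, had 20.1, 18.8 and 18.3 FPKM in Combo, against 24.1, 26.2 and 23.1 FPKM in Con (-0.34, SE 0.09). HMGB3, a related protein, had 4.56, 3.25 and 3.45 FPKM in Combo, against 5.47, 6.01 and 5.30 FPKM in Con (-0.48, SE 0.11). MEIS2, a homeobox factor, had 3.34, 3.36 and 2.83 FPKM in Combo, against 3.97, 4.26 and 4.38 FPKM in Con (-0.32, SE 0.08). HES4, of the Notch response, stood at -0.31 (SE 0.13) with separate groups. None of these genes passed an adjusted p of 0.05 with limma.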
